A study of Mus musculus with 16 samples.

Results

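The pore subunits of the voltage-gated calcium channels were examined as a set of 8 genes, Cacna1a, Cacna1b, Cacna1c, Cacna1d, Cacna1e, Cacna1g, Cacna1h and Cacna1i, out of 25006 genes counted. They were chosen by name to cover the L, P/Q, N, R and T types of calcium current and were found in the count files by Ensembl identifier. The 2 remaining pore genes, Cacna1f and Cacna1s, which serve mainly the retina and skeletal muscle, were kept apart. The RNA came from dopaminergic neurons of the substantia nigra pars compacta (SNc) and was collected with RiboTag, a method that pulls down a tagged ribosomal protein, made only in chosen cells, with the mRNA on those ribosomes. The study asked how calcium entry through plasma membrane channels is coupled to mitochondrial metabolism, and it compared mice with and without the mitochondrial calcium uniporter gene Mcu in these neurons.

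The 8 control mice were DAT-Cre +/- and the 8 MCU-KO mice were DAT-Cre +/- MCU fl/fl, each giving 1 library. The paper counts more MCU-KO mice in its RNA sequencing than the 8 used here. All 16 mice were at postnatal day 45 and were sampled 30 days after injection into the SNc of a viral vector that carried the tagged ribosomal protein in a form switched on by Cre. In both groups Cre was driven from the dopamine transporter locus (Slc6a3), so the deletion and the tag depended on the same Cre. The controls came from a cross of DAT-Cre with C57/BL6 mice and carried no floxed Mcu allele, so that allele and its breeding background cannot be told apart from the loss of Mcu. The tissue was dissected before the pull-down, and fewer neurons and less mRNA per neuron cannot be told apart in such samples.

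The pore subunit of a voltage-gated calcium channel is a single large protein of several repeats that forms the gate, the voltage sensors and the calcium-selective filter. Beta subunits bind it inside the cell and alpha2delta subunits outside, and both raise the number of channels at the membrane. Cav1 channels carry the dihydropyridine-sensitive L-type current, Cav2 channels supply the calcium that triggers transmitter release at many synapses, and Cav3 channels open at more negative voltages and inactivate quickly. Dopaminergic neurons of the SNc fire on their own and take up calcium during this pacemaking, in part through Cav1.3, which Cacna1d encodes.

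Each repeat holds a pore loop with an acidic residue that selects calcium. The coding sequence of this loop in the first repeat is shown for all 8 genes (GENCODE transcripts, GRCm38), because it is a part of the protein that all of them need and shows how alike they are there. The capitals mark the codon of the selectivity-filter glutamate.
Cacna1c: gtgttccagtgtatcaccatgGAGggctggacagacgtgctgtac
Cacna1d: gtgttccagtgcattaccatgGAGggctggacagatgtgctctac
Cacna1a: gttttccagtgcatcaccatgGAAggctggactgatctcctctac
Cacna1b: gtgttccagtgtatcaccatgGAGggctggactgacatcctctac
Cacna1e: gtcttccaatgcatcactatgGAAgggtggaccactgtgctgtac
Cacna1g: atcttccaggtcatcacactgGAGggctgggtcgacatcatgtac
Cacna1h: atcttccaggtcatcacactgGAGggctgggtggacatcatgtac
Cacna1i: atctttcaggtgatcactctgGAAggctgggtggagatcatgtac

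The Cav3 genes were identical with each other at 39 to 44 of these 45 bases and with the Cav1 and Cav2 genes at 27 to 33. The window did not part Cav1 from Cav2. Cacna1c and Cacna1d were identical at 41 bases, but so were Cacna1b and Cacna1c, while Cacna1a and Cacna1b shared 40 and Cacna1b and Cacna1e only 32. The Cacna1c window lay at chr6:118751372-118751416 and the Cacna1d window at chr14:30178548-30178592, both on the minus strand and inside coding exon 7. Each window was placed by searching the translated coding sequence for a short motif that contains this glutamate. Its codon was therefore present in every gene by the choice of the window, and the motif also added to the identities counted above.

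Because the genes are related, the sequence that they share bears on how well counts can be assigned. The longest run of identical bases between Cacna1c and Cacna1d was 43 bases long and lay in exon 28 of both genes, at chr6:118654366-118654408 and chr14:30099154-30099196 on the minus strand. It is shown because it is the stretch in which reads of the 2 L-type genes are hardest to tell apart.
Shared by Cacna1c and Cacna1d: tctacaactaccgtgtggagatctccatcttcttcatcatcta

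Longer runs were found only between members of the Cav3 family and between Cacna1b and Cacna1e. They measured 68 bases between Cacna1g and Cacna1i, 50 between Cacna1h and Cacna1i, and 46 between Cacna1b and Cacna1e. Of all stretches of 50 bases in a gene's transcripts, Cacna1d shared the largest part with another gene, 4.18%, and that part was shared with Chdh, a neighbour on the opposite strand whose exons overlap it. Cacna1a shared 2.5%, Cacna1h 1.12%, and Cacna1c none. The strandedness of the counting is not given in the sources used here, so in the overlaps of Cacna1d with Chdh, of Cacna1a with Gm16183 and of Cacna1h with Tpsg1 the reads of the 2 strands may not be separated.

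Library totals ran from 14129527 to 22016362 counts, and 3 counts, taken as the detection floor, corresponded to 0.136 to 0.212 CPM (counts relative to the library total). Such floors cover counting error only. The 13 dopaminergic markers had counts in every mouse, with a summed level of 290600 to 374100 normalised counts in controls and 248600 to 416200 in MCU-KO. Markers of other cells were present as well. Oligodendrocyte markers summed to between 54430 and 105400 normalised counts in controls and to between 64370 and 124200 in MCU-KO, and astrocyte markers to between 16820 and 28790 and to between 18380 and 31310. GABA neuron markers summed to at least 2642, glutamate neuron markers to at least 238.4, microglial markers to at least 478.6 and endothelial markers to at least 226.9 in every mouse. Of the markers, Cx3cr1, P2ry12, Tmem119, Aif1, Cldn5, Flt1 and Slc17a7 were at 0 in some mouse. Of the 42 markers on these lists 0 passed the edgeR test between genotypes, beside 0.178% of all genes tested. At an unadjusted p under 0.05 there was 1, the astrocyte gene Slc1a2, beside 4.41% of all genes. With shares this small, these counts say little about whether the cell content of the groups was alike. The part that other cells had in the levels of the pore subunits was not tested. Counts over the whole Mcu gene, which do not isolate the deleted exons, ran from 120.3 to 828.2 normalised counts in controls and from 5.82 to 410.1 in MCU-KO. The groups overlapped, at a log2 fold change of -1.19 ± 0.59 (SE, n = 8 and 8; edgeR adjusted p = 1). The paper verified the deletion by other means. It used quantitative RT-PCR of Mcu transcripts in RiboTag RNA and found a smaller mitochondrial calcium uptake in MCU-KO neurons.

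Within control mice, the 8 pore subunits fell into a higher and a lower set. The higher set was taken from these same data, as the members with at least 10 counts in every mouse of both genotypes. Comparisons between the sets therefore describe that split and do not test it. Levels were compared between genes as normalised counts (counts divided by DESeq2's size factors) per kb of exon. Cacna1a, the P/Q-type pore subunit (Cav2.1), had the highest median, 93.1 normalised counts per kb, followed by the N-type gene Cacna1b (Cav2.2) at 76.96, the T-type gene Cacna1g (Cav3.1) at 64.98 and the R-type gene Cacna1e (Cav2.3) at 52.03. A step followed. The T-type gene Cacna1h (Cav3.2) had a median of 14.42, the T-type gene Cacna1i (Cav3.3) of 5.253, the L-type gene Cacna1d (Cav1.3) of 5.079 and the L-type gene Cacna1c (Cav1.2) of 4.623.

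**Figure D1:**
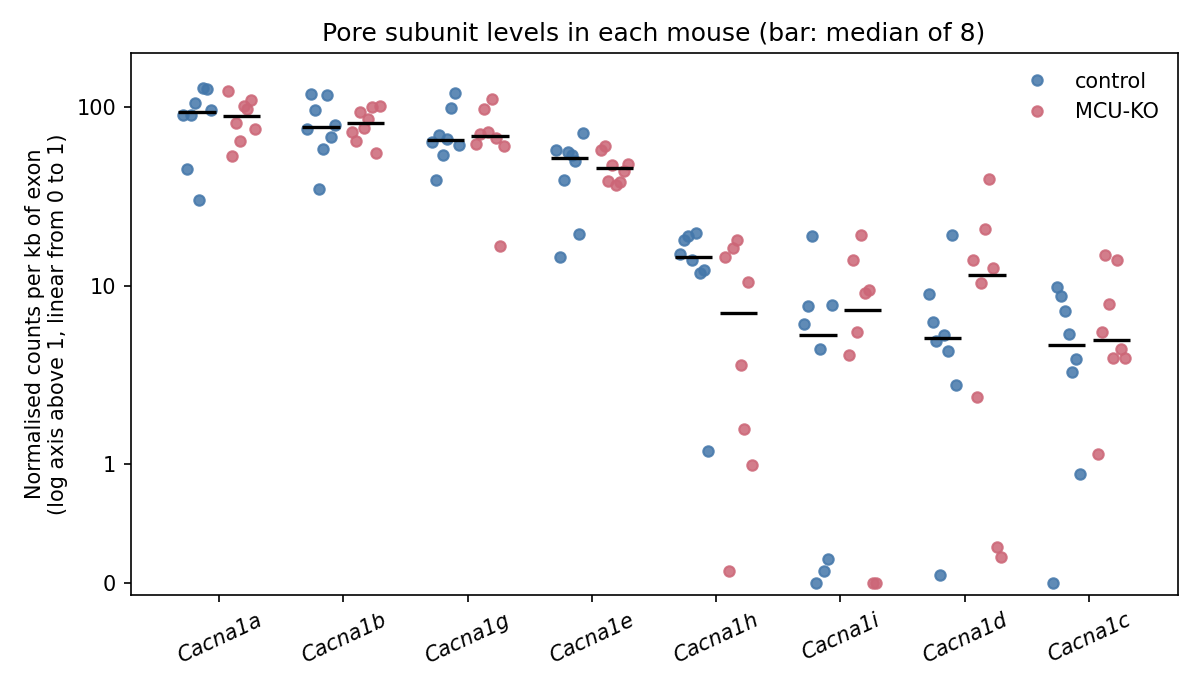
Normalised counts per kb of exon of the 8 pore subunit genes, 1 point per mouse (blue, 8 control mice; red, 8 MCU-KO mice), with a bar at the median of each group. The vertical axis is logarithmic above 1 and linear from 0 to 1. Cacna1a, Cacna1b, Cacna1g and Cacna1e stay at or above 14.45 in every mouse, while Cacna1h, Cacna1i, Cacna1d and Cacna1c run from at or near 0 to as high as 39.28.

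The 7 pairs of neighbours in this order were compared by an exact sign-flip test on log2 values within mice, two-sided, and had adjusted p of 0.109 or more. This says little, because 8 mice cannot give an exact p under 0.00781, so a single pair out of 7 that differed in every mouse would reach an adjusted p of 0.0547 at best. The only one with an unadjusted p under 0.05 was the step itself, Cacna1e over Cacna1h, with a mean log2 difference of 1.82 ± 1.79 (SD, n = 8), higher in 7 of 8 mice, exact p = 0.0156 and adjusted p = 0.109. When all 28 pairs were compared, a choice made after the values were seen, 18 had an adjusted p under 0.05 in control mice by the same exact test. These were the 16 pairs that join a gene of the higher set with one of the lower set, and within the sets Cacna1a over Cacna1e (adjusted p = 0.0486) and Cacna1h over Cacna1c (adjusted p = 0.0137). The 16 mean log2 differences ran from 1.82 to 5.37, and Cacna1e over Cacna1h was among them (adjusted p = 0.0257 over 28 pairs). In MCU-KO mice the same 16 pairs had an adjusted p under 0.05, with mean log2 differences of 3.07 to 4.85. The MCU-KO counts had also entered the choice of the sets, so this is no separate test of them.

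In MCU-KO mice the higher set kept the order Cacna1a, Cacna1b, Cacna1g and Cacna1e, with medians of 89.0, 80.7, 68.41 and 45.64 normalised counts per kb. The lower set followed in another order, with Cacna1d at 11.45, Cacna1i at 7.273, Cacna1h at 7.053 and Cacna1c at 4.932. The 7 pairs of neighbours had adjusted p of 0.109 or more (exact sign-flip test), with the same limit, and the step from Cacna1e to Cacna1d, with an unadjusted exact p of 0.0156, was the only one under 0.05 before adjustment.

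The lowest of Cacna1a, Cacna1b, Cacna1g and Cacna1e lay above the highest of the other members in 7 of 8 control mice and in 7 of 8 MCU-KO mice. As the sets were chosen from the counts of both genotypes, these numbers describe the split only. The exceptions were control mouse 2, where Cacna1e stood at 14.45 and Cacna1h at 18.04 normalised counts per kb, and MCU-KO mouse 5, where Cacna1e stood at 36.57 and Cacna1d at 39.28. Which gene of the higher set ranked first depended on the gene length used. Per kb of exon, Cacna1a ranked first in 5 control and 2 MCU-KO mice, and per kb of the longest transcript in 6 of each.

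Among the 12383 tested genes with an exon length, the medians of the higher set stood below the middle and those of the lower set near the bottom. By its median per kb in controls, Cacna1a lay above 47.99% of genes, Cacna1b above 43.85%, Cacna1g above 40.05% and Cacna1e above 35.19%. Cacna1h lay above 13.53%, Cacna1i above 5.863%, Cacna1d above 5.701% and Cacna1c above 5.306%. Ranks in single control mice ran wider, from 25.94% to 55.32% for Cacna1a. They reached 53.42% for Cacna1b, 53.64% for Cacna1g and 41.33% for Cacna1e, and in the lower set 20.71% for Cacna1h and 19.28% for Cacna1d. Cacna1f was at 0 in 7 of 8 control and 7 of 8 MCU-KO mice, and Cacna1s in 8 and 6, and neither passed the filter for low counts.

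The Cav2 genes had levels that differed between mice by a few fold and never approached 0. Cacna1a (ENSMUSG00000034656, chr8:84388440-84640246, plus strand) ran from 342.0 to 1448 normalised counts in controls around a median of 1063, and from 605.9 to 1403 around 1016 in MCU-KO. Control mice 5 and 2, at 342.0 and 511.6, were the lowest. Cacna1b (ENSMUSG00000004113, chr2:24603887-24763152, minus strand) ran from 345.6 to 1169 around a median of 765.2 in controls and from 545.0 to 1003 around 802.3 in MCU-KO. Its lowest value was in control mouse 4, where Cacna1a was at 1200. Cacna1e (ENSMUSG00000004110, chr1:154390731-154884501, minus strand) ran from 364.6 to 1798 around a median of 1313 in controls and from 922.5 to 1520 around 1151 in MCU-KO. Control mice 2 and 7, at 364.6 and 487.1, lay below all other mice. The genotypes overlapped for each of these genes, and in each of them the MCU-KO values lay inside the range of the controls.

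The Cav3 genes, which produce low-threshold calcium currents, were far apart from each other. Cacna1g (ENSMUSG00000020866, chr11:94408391-94474198, minus strand) ran from 393.6 to 1209 normalised counts in controls around a median of 658.7, and from 167.8 to 1115 around 693.5 in MCU-KO, with MCU-KO mouse 7 lowest. Cacna1h (ENSMUSG00000024112, chr17:25374285-25433783, minus strand) lay between 114.5 and 192.3 in 7 control mice and at 11.64 in control mouse 8. In MCU-KO mice its values were scattered. It stood at 141.3, 159.0, 174.5 and 102.8 in mice 1, 3, 4 and 7, and at 0.974, 34.92, 15.4 and 9.662 in mice 2, 5, 6 and 8.

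Cacna1i (ENSMUSG00000022416, chr15:80287238-80398279, plus strand) was the member most often near the detection floor. It had 3 or fewer counts in 3 of 8 control mice and 2 of 8 MCU-KO mice, and up to 207 counts in the others. Control mouse 3 held its highest control value, 187.7 normalised counts, and MCU-KO mouse 4 its highest in that group, 189.2. The groups overlapped over nearly their whole range.

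The Cav1 genes were low on average and varied more between mice than the Cav2 genes. Cacna1c (ENSMUSG00000051331, chr6:118587240-119196418, minus strand) stood in control mice 1 to 8 at 0, 208.7, 184.9, 153.2, 113.7, 69.54, 82.22 and 19.41 normalised counts. In MCU-KO mice 1 to 8 it stood at 24.04, 115.9, 312.4, 168.0, 83.43, 292.6, 93.09 and 82.81. Only control mouse 1 had no count, out of 20201642, and the highest values, in MCU-KO mice 3 and 6, were above every control.

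Cacna1d (ENSMUSG00000015968, chr14:30039939-30491455, minus strand) stood in control mice 1 to 8 at 112.6, 78.37, 61.64, 0.871, 66.55, 54.2, 241.5 and 34.93 normalised counts. In MCU-KO mice 1 to 8 it stood at 175.0, 30.2, 130.5, 260.3, 495.7, 158.5, 3.879 and 2.76. Control mouse 4, with a single count, and MCU-KO mice 7 and 8, with 4 and 2 counts, were near the floor. MCU-KO mice 4 and 5 were above every control.

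The spread between mice exceeded counting error in every member. Each mouse gave a single library, so differences between mice and differences in the handling of their libraries cannot be told apart. Across the 16 mice, the coefficient of variation (CV) was 32.6% for Cacna1a, 28.1% for Cacna1b, 32.3% for Cacna1e and 36.7% for Cacna1g, where the mean counts alone would give 2.896% to 3.686%. It was 64.7% for Cacna1h, 72.3% for Cacna1c, 95.8% for Cacna1i and 108.1% for Cacna1d, where counting would give 8.649% to 11.92%. The biological coefficient of variation from edgeR was set beside the trend through all genes at the same level. The estimate for each gene is drawn towards that trend, so a likeness between them is partly built in. In the higher set it was 0.373 for Cacna1a against 0.361 for the trend, and 0.344 against 0.403 for Cacna1b. For Cacna1e it was 0.368 against 0.337 and for Cacna1g 0.425 against 0.43. In the lower set it was 1.10 against 1.31 for Cacna1h and 1.07 against 1.22 for Cacna1c. For Cacna1d it was 1.21 against 1.25 and for Cacna1i 1.59 against 1.51.

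**Figure D2:**
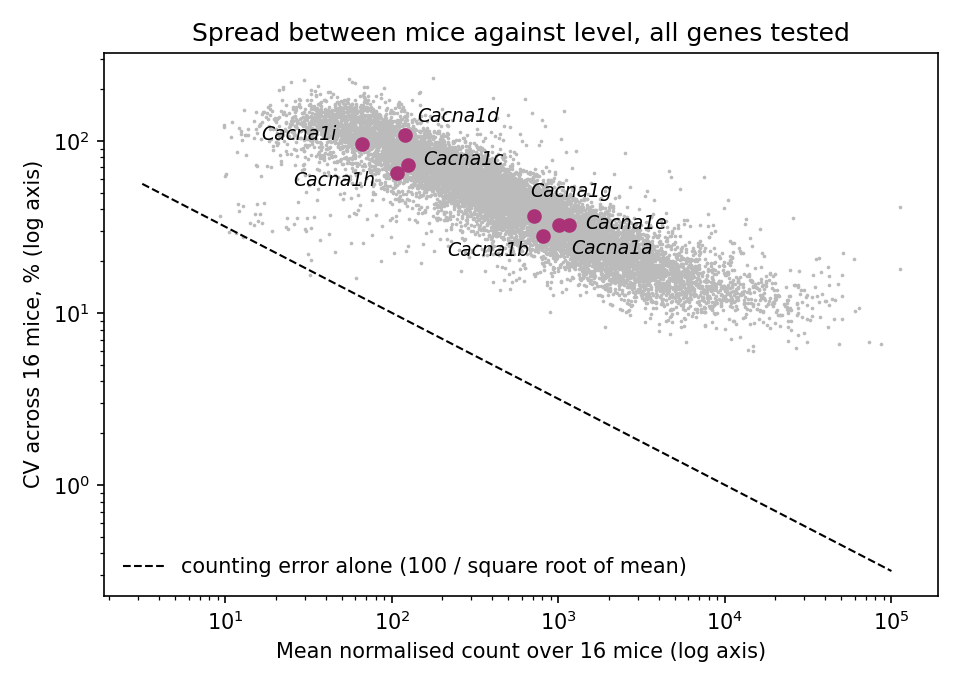
Coefficient of variation across the 16 mice against the mean normalised count, both on log axes, for all genes tested (grey) and the pore subunits (purple). The dashed line is the spread that counting error alone would give. The members lie within the cloud of other genes and far above the line, Cacna1b lowest at 28.12% and Cacna1d highest at 108.1%.

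The members were also compared with each other across mice. Of the 28 pairs, correlated over 16 mice on log2 CPM (prior count 2) centred within genotype, 13 had a positive Pearson r, and r ran from -0.46 to 0.64. An unadjusted permutation p under 0.05 was found for 2 pairs, and none had an adjusted p under 0.05. For Cacna1d and Cacna1i, r was 0.64 (permutation p = 0.0102, adjusted p = 0.178) and Spearman's rho 0.30 (permutation p = 0.269, adjusted p = 0.836), and without the 2 mice farthest from the median r was 0.38, so that relation rested on those mice. For Cacna1d and Cacna1g, r was 0.61 (permutation p = 0.0127, adjusted p = 0.178), rho 0.61 (permutation p = 0.012, adjusted p = 0.336) and r without those mice 0.77.

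Outside the family, the genes that varied most like the 2 L-type genes were sought among 8936 genes with at least 10 counts in every mouse, on the same scale. For Cacna1d they were Ythdf3 (r = 0.80, rho = 0.60), Acad9 (r = 0.80, rho = 0.69) and B230354K17Rik (r = 0.79, rho = 0.55), with permutation p of r between 0.00079 and 0.0018 and of rho between 0.0094 and 0.03, and an adjusted p of r of 0.66 for each. For Cacna1c they were Agbl3 (r = 0.84, rho = 0.58), Mrap2 (r = 0.84, rho = 0.63) and Cxxc4 (r = 0.82, rho = 0.79), with permutation p of r between 0.00094 and 0.0031 and of rho between 0.00065 and 0.025, and an adjusted p of r of 0.955 for each. Without the 2 mice farthest from the median, r was 0.68, 0.80 and 0.51 for the Cacna1d genes and 0.36, 0.57 and 0.63 for the Cacna1c genes. No gene passed the adjustment for either (n = 16 mice). By unadjusted permutation p under 0.05 there were 511 of the 8936 genes for Cacna1d and 442 for Cacna1c. Both numbers are near the 1 in 20 that this threshold passes by chance.

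Grouped by family, the Cav2 genes held most of the summed level in every mouse. They made up 67.6% ± 6.77 of the sum per kb in controls and 68.3% ± 10.4 in MCU-KO (SD, n = 8 each). The Cav3 genes made up 28.7% ± 5.50 and 26.0% ± 7.79, and the Cav1 genes 3.67% ± 1.90 and 5.67% ± 3.52. The lowest Cav2 share was 57.26%, and the highest Cav1 share was 11.14%, both in MCU-KO mice. The summed level of the 8 genes was 316.4 ± 57.9 normalised counts per kb in controls and 319.4 ± 49.5 in MCU-KO. These are shares and sums of RNA. Channel protein and calcium current were not measured in these libraries. The paper describes Cav1 channels as robustly expressed in these neurons. It also found that isradipine, which inhibits Cav1 channels, lowered their mitochondrial calcium.

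**Figure D3:**
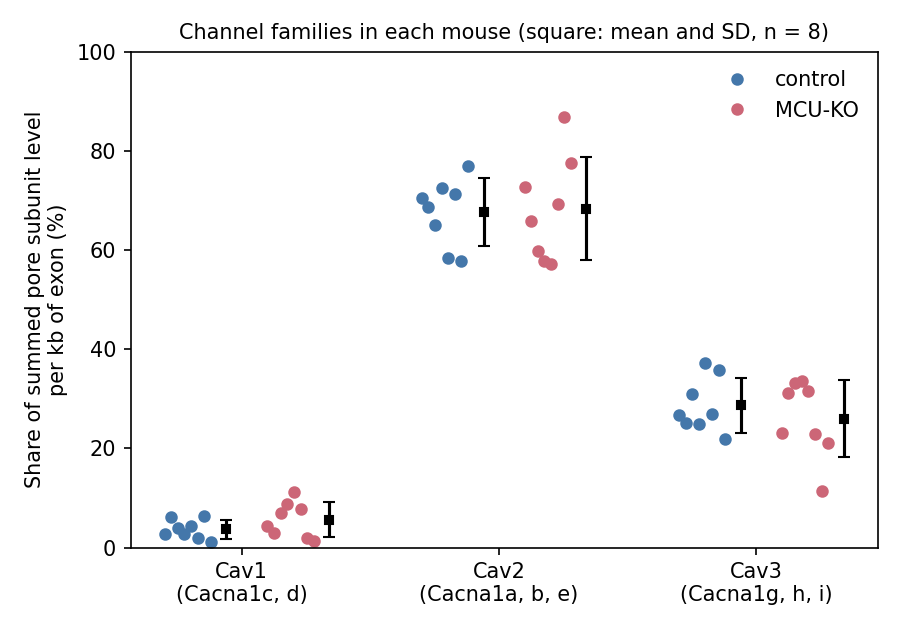
Share of the summed pore subunit level per kb of exon held by the Cav1, Cav2 and Cav3 genes in each mouse (blue, control; red, MCU-KO), with the mean and SD of 8 mice beside the points. Cav2 holds 57.26% or more in every mouse and Cav1 at most 11.14%, and the genotypes overlap in each family.

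The L-type genes were then compared with each other, because Cav1 channels are the calcium source that the study followed. Cacna1c had the higher mean in controls as normalised counts, 104.0 ± 75.3 against 81.3 ± 72.3 for Cacna1d (SD, n = 8), but its exons are longer, 21.19 kb against 12.62 kb. Per kb, Cacna1d had 6.44 ± 5.73 and Cacna1c 4.91 ± 3.55. Cacna1d was the higher gene in 4 of 8 control mice (1, 6, 7 and 8) and Cacna1c in the other 4. The log2 ratio per kb, with 1 normalised count added to each gene, ran from -5.62 in control mouse 4 to 7.58 in control mouse 1, the mice in which Cacna1d and Cacna1c were near or at 0. Its mean was 0.59 ± 3.69 (SD, n = 8; 95% interval from -2.36 to 3.77; exact sign-flip test, two-sided, p = 0.609). The direction of this mean rested on control mouse 1, without which it was -0.41. The data therefore gave no order of the L-type genes, and the interval spans a several-fold difference in either direction.

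In MCU-KO mice the log2 ratio ran from -3.73 to 3.56 with a mean of -0.10 ± 2.76 (SD, n = 8; 95% interval from -2.46 to 2.34; exact sign-flip p = 0.875). Cacna1d was higher in 3 of 8 mice. The ratio differed between the genotypes by -0.69 (MCU-KO minus control; 95% interval from -4.15 to 2.75; exact permutation test over 12870 splits, two-sided, p = 0.683). Without control mouse 1 the difference was 0.31.

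**Figure D4:**
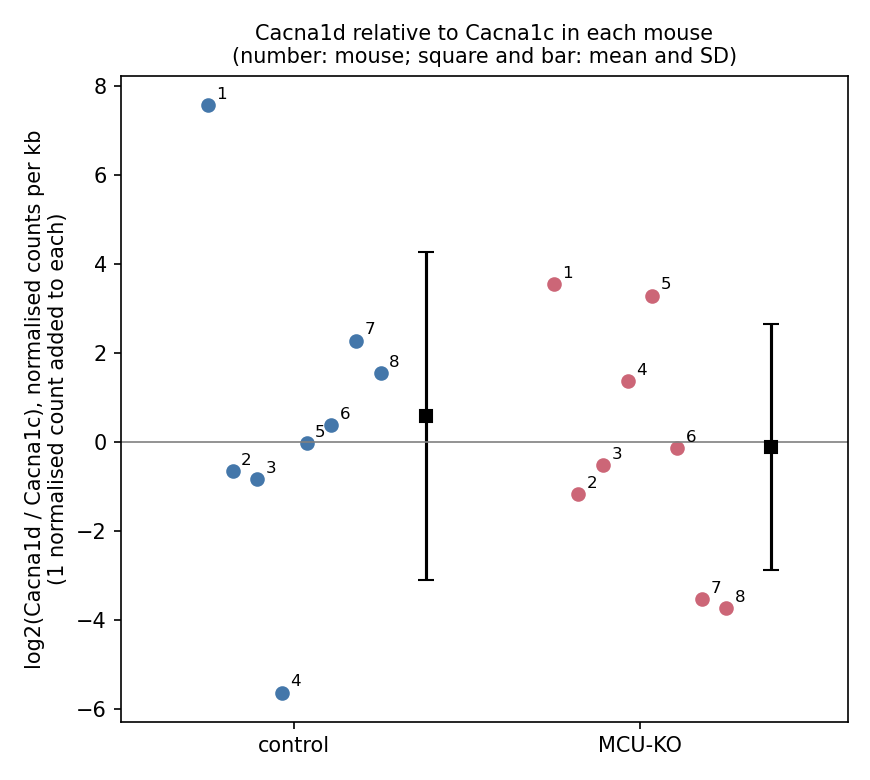
Log2 ratio of Cacna1d to Cacna1c per kb of exon in each mouse, after adding 1 normalised count to each gene, with the mouse number beside the point and the mean and SD of each genotype as a square with a bar. Points lie on both sides of 0 in both genotypes, from -5.62 to 7.58 in controls and from -3.73 to 3.56 in MCU-KO.

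No pore subunit was called different between MCU-KO and control mice. In the edgeR fit, with Benjamini-Hochberg adjusted p-values over 12390 genes, 0 of 8 members passed the threshold of 0.05, where 0.178% of all genes tested did. At that share most sets of 8 genes would give 0. The same fit did not call the deleted gene Mcu either, at a log2 fold change of -1.19. A missing call therefore does not show that a gene was unchanged. The genotypes overlapped in each member, and they failed to overlap in 0.258% of all genes. By unadjusted p under 0.05 the members numbered 0 as well, against 4.41% of all genes, and DESeq2 also called 0 of 8 against 0.557% of all genes. Of the members, 5 had a higher fitted level in MCU-KO and 3 a lower one, and their median log2 fold change was 0.02, beside 0.00 over all genes tested. The paper, which used DESeq2, reported no changes in its genes for calcium homeostasis and pacemaking. The precision of the edgeR fit was unequal. For Cacna1a the fold was 0.992 with a 95% interval of 0.681 to 1.44, for Cacna1b 1.00 (0.714 to 1.41), for Cacna1e 1.02 (0.706 to 1.49) and for Cacna1g 0.971 (0.631 to 1.49), so changes larger than 1.5-fold in either direction lay near or outside these intervals.

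For the lower set the same comparison was much less precise. Cacna1d had a mean of 81.3 normalised counts in controls and 157.1 in MCU-KO, which gave a fitted log2 change of 0.95 ± 0.94 (SE; unadjusted p = 0.323, edgeR adjusted p = 1), and a fold of 1.93 with an interval of 0.501 to 7.40. The fold was 1.41 for Cacna1c (0.431 to 4.62), 1.35 for Cacna1i (0.232 to 7.90) and 0.593 for Cacna1h (0.178 to 1.98). A rise of 1.93-fold lay inside the interval of each of these 4 genes and was not detectable in these libraries.

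**Figure D5:**
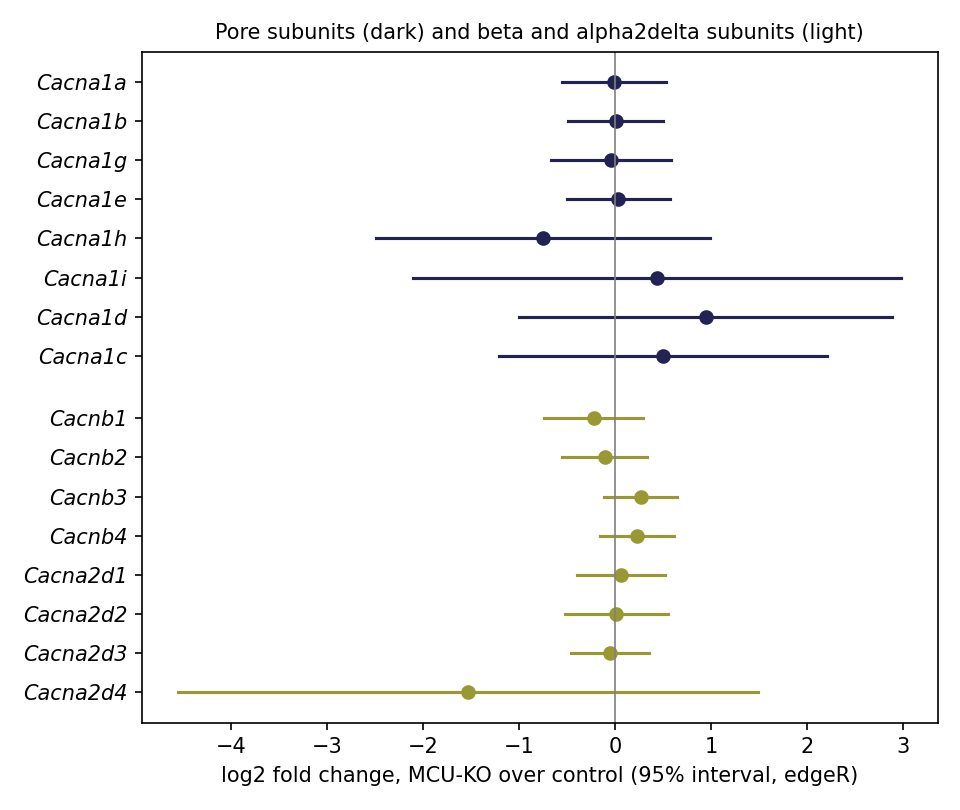
Log2 fold change of MCU-KO over control with its 95% interval from edgeR (n = 8 and 8 mice) for the pore subunits (dark) and for the beta and alpha2delta subunits (light). Every interval includes 0. Those of Cacna1a, Cacna1b, Cacna1g and Cacna1e are narrow, and those of Cacna1h, Cacna1i, Cacna1d, Cacna1c and Cacna2d4 are wide.

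The genes that assemble with the channels or act beside them were listed by role, 55 in all, of which 44 passed the filter for low counts. None of the 44 had an adjusted p under 0.05 in edgeR, beside 0.178% of all genes, and 3 had an unadjusted p under 0.05, beside 4.41% of all genes. In the fit 23 had a higher and 21 a lower fitted level in MCU-KO, and their median log2 fold change was 0.01. The 3 were chosen for naming after their values were seen. Calm3, one of the genes for calmodulin, the calcium sensor bound to Cav1 and Cav2 channels, had a mean of 21980 normalised counts in controls and 17940 in MCU-KO (log2 fold change -0.29 ± 0.08, SE; edgeR adjusted p = 0.409), and it was the only one of 53 that DESeq2 called (adjusted p = 0.0388), where it called 0.557% of all genes. Itpr1, a receptor that releases calcium from the endoplasmic reticulum, had 1000 and 568.2 (-0.82 ± 0.32, adjusted p = 0.973). Rims3, of the RIM family of active zone proteins, had 2294 and 2881 (0.33 ± 0.13, adjusted p = 1).

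Several beta and alpha2delta subunits had medians above that of Cacna1a, the highest pore subunit. In controls these were Cacnb1, Cacnb3, Cacnb4 and Cacna2d3, the first and last of them at 181.2 and 191.3 normalised counts per kb. All 4 beta subunits and all 4 alpha2delta subunits were tested, and 0 were called, beside 0.178% of all genes. Per kb of exon, Cacnb3 and Cacnb4 were the highest in controls, with medians of 447.8 (301.9 to 704.0) and 269.3 (121.1 to 380.3) normalised counts per kb, and in MCU-KO 555.8 (367.0 to 714.7) and 290.1 (243.0 to 491.7). Cacna2d4 and Cacnb2 were the lowest, with 3.963 (0 to 30.1) and 75.16 (44.89 to 105.0) in controls, and 1.582 (0 to 8.839) and 61.58 (52.36 to 94.05) in MCU-KO. Cacna2d4 was at 0 in 3 control and 3 MCU-KO mice, and its 95% interval for the log2 fold change, from -4.55 to 1.48, was the widest of the 8.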

How the data were processed

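The authors trimmed the reads with cutadapt (Trim Galore in the submitters' processing notes), used STAR with mm10 for alignment and HTSeq for counting, and deposited whole-number counts for each mouse without normalization. Versions, read length and strandedness are not given in the sources used here. Identifiers were matched to GENCODE M21 (GRCm38), which gave a symbol and an exon length for 24942 of 25006. Genotypes were compared with edgeR 4.0.16 (R 4.3.3): filterByExpr, TMM scaling and the quasi-likelihood F-test. P-values of 12390 genes were adjusted by Benjamini-Hochberg, with a threshold of 0.05. Intervals are 95%. Levels were divided by DESeq2 1.42.0 size factors and by the union of exons. Within-mouse comparisons used exact sign-flip tests over 256 patterns, correlations 100000 permutations within genotype, and intervals of ratios were found by inverting the exact test (Python 3.11.15, scipy 1.17.1). The fits and exact tests were tested on simulated data. Alternatives used DESeq2, limma 3.58.1, other scalings, filters, pseudocounts, gene lengths, a replicate block and the omission of each mouse. The members and gene lists were chosen with earlier results of these data known. Named were all 8 members, Mcu, partner genes past the threshold, the 2 highest and 2 lowest beta or alpha2delta subunits, and the 3 genes most like Cacna1d and Cacna1c. Calm3, Itpr1, Rims3, Cacnb1 and Cacna2d3 were named outside this rule, after their values were seen. P-values of comparisons set a difference against the spread between mice, which includes the handling of their single libraries.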

Additional observations from a re-analysis of the deposited data

Results flagged for a closer look

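In 26 sets of 8 values (each member, Mcu, the Cacna1d to Cacna1c ratio and the 3 family shares in each genotype), 3 held 1 mouse whose gap to the nearest other mouse exceeded, as a part of the whole range, Dixon's 95% critical value. For normally distributed values chance gives about 1 in 20, or 1.3. The normalised counts were not log-transformed and their distribution was not checked, so that number need not hold here. Cacna1d stood at 241.5 normalised counts in control mouse 7, and between 0.871 and 112.6 in the other 7. Cacna1h stood at 11.64 normalised counts in control mouse 8, and between 114.5 and 192.3 in the others. Cacna1i stood at 187.7 normalised counts in control mouse 3, and between 0 and 76.65 in the others. All 3 are genes of the lower set.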

How the results depend on the processing

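All 8 members had an adjusted p above 0.05 under every alternative that could test them; the filter of at least 10 counts in every library tested 4. Over all genes 22 were called, 90 with DESeq2 and 14 with the replicate block, and 18 to 24 when a mouse was left out. Among the partner genes DESeq2 called 1 (Calm3). The mouse numbers did not pair the mice: same-numbered deviations correlated at -0.0612 to 0.0309, and 0 of 8 matched best with their own number. With the block the log2 ratio of Cacna1d to Cacna1c differed between genotypes by -0.69 (exact sign-flip p = 0.664). Without control mouse 1 this log2 ratio became -0.41 in controls and its difference between genotypes 0.31. Leaving out each mouse gave -0.41 to 1.48 for the ratio in controls and -1.58 to 0.31 for the difference. The log2 fold change of Cacna1a, near 0, became 0.063 with limma-voom and 0.06 with the block. Leaving out each mouse gave log2 fold changes of -0.14 to 0.085 for Cacna1a and -0.107 to 0.105 for Cacna1b. For Cacna1e they were -0.096 to 0.163 and for Cacna1g -0.165 to 0.106. The log2 fold changes of the lower set moved further without a change of sign. Leaving out each mouse gave 0.422 to 1.424 for Cacna1d (0.398 was the lowest value under the other alternatives) and 0.084 to 1.028 for Cacna1i. It gave 0.245 to 0.726 for Cacna1c (up to 1.175 under the other alternatives) and -1.021 to -0.563 for Cacna1h. The test of neighbours had 0 pairs under an adjusted p of 0.05 under each alternative, which says nothing of stability, since a single pair could reach 0.0547 at best with 8 mice and 0.109 with 7. With the longest transcript as gene length Cacna1e moved to the second place and the lower set ran Cacna1h, Cacna1c, Cacna1d, Cacna1i. The order of Cacna1i, Cacna1d and Cacna1c also changed when control mouse 1, 2, 3, 6, 7 or 8 was left out, while the first 5 places kept their genes in all 8 omissions. The 18 of 28 pairs became 17 to 18 under other pseudocounts, scaling and length, and 16 to 20 when a mouse was left out. The cause of these shifts was not tested. Cacna1c, Cacna1d, Cacna1h and Cacna1i had 3 or fewer counts in 1, 2, 1 and 5 of 16 mice. Their spread between mice was 6.93 to 12.09 times the counting error expected from their mean read counts. The source of that spread was not tested.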
